A study of Mus musculus with 12 samples.

Results

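Pericentral hepatocytes are the liver cells that surround the central vein, and the 9 genes examined here are hepatocyte genes that these cells express and that depend on Wnt signaling: Glul, Oat, Axin2, Lgr5, Tbx3, Slc1a2, Rhbg, Cyp2e1 and Cyp1a2. They were taken by name from the 24062 genes in the count tables, by a rule that uses no measured value but was drawn up with earlier results of these data known, and all 9 passed the filter on low counts with 12481 genes in all. Gene counts came from RNA-seq of whole liver of 12 female C57BL/6J (B6) mice, 6 weeks old on arrival. All mice were acclimated for 2 weeks and moved from chow to the control diet 3 days before the experiment. Of these 12, 6 mice then stayed on the control diet. The other 6 received the matched diet with BIBB-515, an inhibitor of lanosterol synthase, at 55 mg/kg body weight for 10 days. The paper reports more mice per diet than have libraries here, and how the sequenced mice were chosen is not given. No mouse carried an altered allele, and the comparison concerns one inbred strain, one sex and one dose. The question is how the pericentral genes respond when this step of cholesterol synthesis is inhibited.

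In the liver lobule, blood flows from the portal vein to the central vein, and hepatocytes divide their work along this path. Endothelial cells of the central vein secrete Wnt ligands and R-spondin 3, which stabilize beta-catenin in the neighboring hepatocytes, and beta-catenin with TCF factors turns on the pericentral genes. These cells remove ammonia that periportal hepatocytes have left in the blood by making glutamine, and they metabolize drugs. Because whole liver was sequenced, fewer pericentral cells and less RNA per pericentral cell cannot be told apart in any value below.

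Between 22764819 and 27914647 reads per control mouse and between 24223939 and 31058370 per BIBB-515 mouse were counted on genes. Hepatocyte markers were abundant in every mouse, with Alb between 114300 and 127500 CPM in controls, and none of the 5 fat markers exceeded a count of 3. The diets differed in the most abundant transcripts. The 20 most highly counted genes took 27.7% to 29.8% of the reads in control mice and 23.6% to 25.2% in BIBB-515 mice. Of 7 hepatocyte markers, 3 were lower with BIBB-515 (Ttr, Alb and Trf) at a false discovery rate under 0.05, as were 6.48% of all tested genes. Apoa1, Apob, Serpinc1 and Hnf4a did not pass. The summed hepatocyte markers ranged from 156600 to 178400 CPM in controls and from 116800 to 131800 CPM with BIBB-515. Most of this sum was Alb, with means of 120100 CPM in controls and 90920 CPM with BIBB-515. The sums of the endothelial, Kupffer cell and leukocyte, stellate and bile duct lists overlapped between the diets. The part of these differences in the results below was not tested.

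Promoter sequences were at hand for 6 of the 9 genes, from RefSeq on GRCm38.p6, as 300 bases from 250 before to 50 after the start. Lgr5, Tbx3 and Rhbg had no entry. The 250 bases before the start are shown for the 3 genes with an entry that differed between the diets. They were searched for the core of the motif bound by TCF/LEF factors. A match to so short a core does not show a bound site, and sequence outside the promoter window was not searched. Capitals mark CTTTGA, the core of the TCF/LEF motif, or its reverse complement TCAAAG.
Glul (chr1:153899679-153899928, plus strand): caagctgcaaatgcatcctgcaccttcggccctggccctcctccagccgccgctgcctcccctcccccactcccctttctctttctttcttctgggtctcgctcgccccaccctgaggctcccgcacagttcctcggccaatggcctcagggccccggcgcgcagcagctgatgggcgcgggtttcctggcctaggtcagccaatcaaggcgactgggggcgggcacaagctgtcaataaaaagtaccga
Slc1a2 (chr2:102706188-102706437, plus strand): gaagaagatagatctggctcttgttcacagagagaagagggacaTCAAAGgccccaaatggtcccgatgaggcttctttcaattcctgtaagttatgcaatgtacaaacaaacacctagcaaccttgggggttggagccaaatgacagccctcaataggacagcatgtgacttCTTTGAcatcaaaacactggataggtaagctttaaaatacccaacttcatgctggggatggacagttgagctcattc
Cyp1a2 (chr9:57683656-57683905, minus strand): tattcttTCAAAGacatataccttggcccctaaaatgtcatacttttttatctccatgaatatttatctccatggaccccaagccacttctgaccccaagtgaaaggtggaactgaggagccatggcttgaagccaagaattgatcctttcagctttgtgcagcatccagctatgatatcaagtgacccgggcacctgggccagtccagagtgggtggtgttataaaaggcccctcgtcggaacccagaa
The Slc1a2 promoter held 2 matches, which begin 206 and 77 bases before the start, and the Cyp1a2 promoter held 1, which begins 243 bases before it. The Cyp2e1 promoter held 1 match 135 bases before the start. Glul, Oat and Axin2 had none in this window. Of all 32851 promoters of this length, 16.0% held the motif on either strand. The GCGTG core of the motif bound by the aryl hydrocarbon receptor AhR, which regulates Cyp1a2, was in none of the 6 promoters and in 32.4% of all promoters (either strand, CACGC as the reverse complement). No window of the 6 held both motifs, so no matches overlapped between them.

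Of the 9 genes, 4 differed between the diets at a false discovery rate (FDR) under 0.05 over all tested genes. Cyp1a2 was higher with BIBB-515, and Glul, Slc1a2 and Lgr5 were lower. Oat, Axin2, Tbx3, Rhbg and Cyp2e1 did not pass. Over all tested genes 13.7% passed, with 7.18% higher and 6.48% lower with BIBB-515. The median log2 fold change of the 9 genes was 0.07, and that of all tested genes was -0.01. Values are given in CPM, which are read counts per library size after TMM scaling, and the fold changes, their standard errors and the FDR are from edgeR's quasi-likelihood test.

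**Figure D1:**
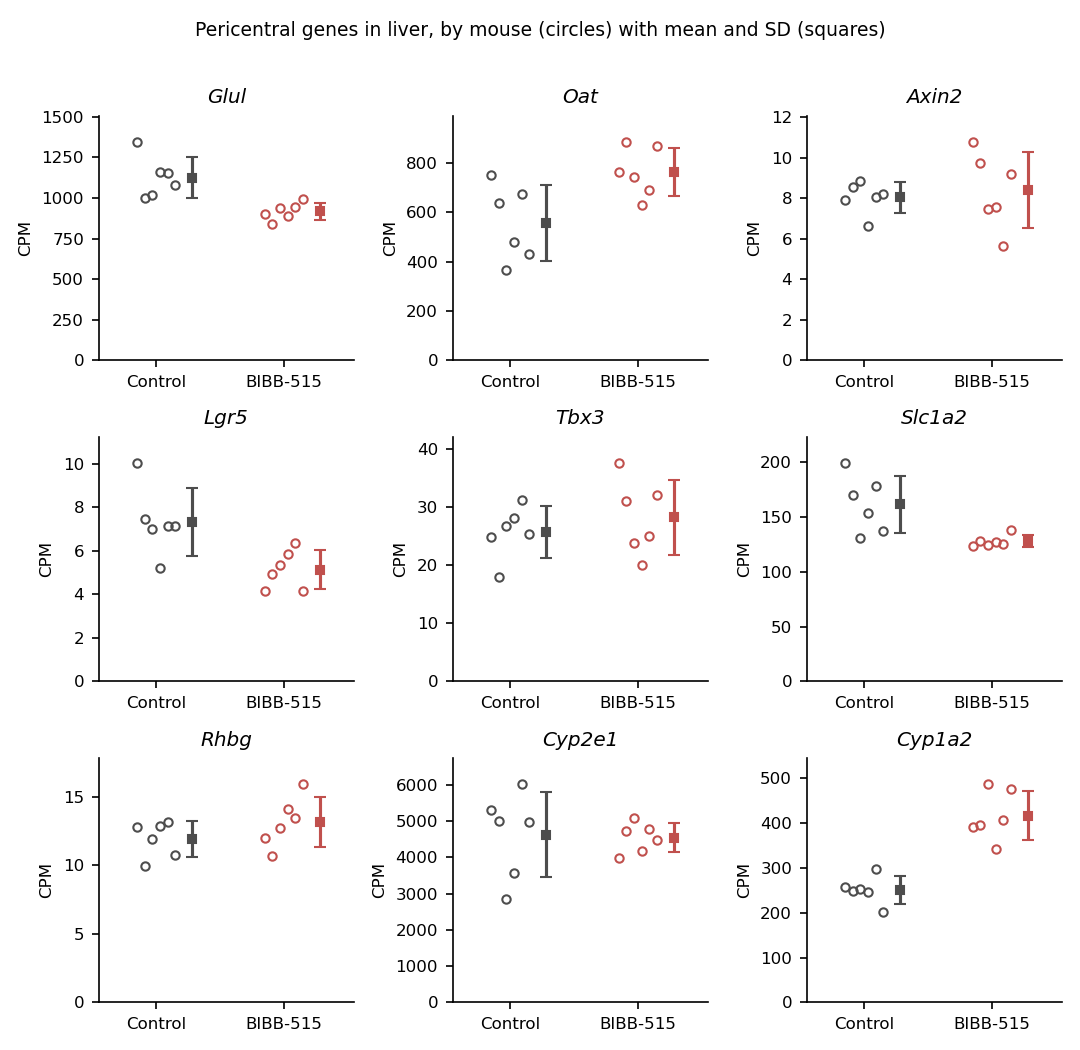
CPM of the 9 pericentral genes in each of 6 control and 6 BIBB-515 mice (circles, one axis from 0 per gene), with the mean and SD of each diet (squares with bars). The diets do not overlap for Glul and Cyp1a2, 5 of 6 BIBB-515 mice lie below every control mouse for Slc1a2, and the other genes overlap more broadly.

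Among the genes that handle ammonia and glutamate, Glul and Slc1a2 were lower and Oat was not called. Glul encodes glutamine synthetase, which joins ammonia and glutamate to glutamine and marks the innermost pericentral hepatocytes. It lies at chr1:153899929-153909723 (mm10, plus strand). Glul ranged from 1001 to 1343 CPM in control mice with a median of 1115, and from 839.7 to 990.5 CPM in BIBB-515 mice with a median of 922. Every BIBB-515 mouse was below every control mouse, a separation without overlap that 7.07% of all tested genes showed, 2.72% with lower values in BIBB-515 mice. The log2 fold change of Glul was -0.29 ± 0.08 (SE, n = 6 per group, 95% CI -0.47 to -0.12, FDR = 0.027), a decrease by 18.5%. The two-sided exact permutation test of log2 CPM gave p = 0.00216, the smallest p that the 924 labelings allow.

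Slc1a2 encodes a plasma membrane transporter that takes up glutamate, the substrate of glutamine synthetase, and lies at chr2:102658683-102790784 (plus strand). It ranged from 131 to 199 CPM in control mice with a median of 162, and from 124 to 138 CPM with BIBB-515 with a median of 127. The highest BIBB-515 mouse reached above the 2 lowest control mice, and the other 5 were below every control. The log2 fold change was -0.34 ± 0.09 (SE, n = 6 per group, 95% CI -0.53 to -0.14, FDR = 0.027, exact permutation p = 0.00649). The spread of Slc1a2 also differed in size, with an SD of 25.9 CPM in control mice and 5.38 CPM with BIBB-515, a difference that was not tested.

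Oat encodes ornithine aminotransferase, a mitochondrial enzyme that breaks down ornithine and forms glutamate in doing so, and lies at chr7:132557475-132576398 (minus strand). Oat ranged from 365 to 749.9 CPM in control mice with a median of 558, and from 629 to 883 CPM with BIBB-515 with a median of 754. All 6 BIBB-515 mice were above the control mean and 3 were above every control mouse. The log2 fold change was 0.46 ± 0.16 (SE, n = 6 per group, 95% CI 0.12 to 0.80) with an FDR of 0.071, which misses the threshold (exact permutation p = 0.0238). DESeq2 gave Oat an FDR of 0.029.

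Rhbg encodes an ammonia transporter of the Rhesus family and lies at chr3:88242874-88254684 (minus strand). It ranged from 9.95 to 13.2 CPM in control mice with a median of 12.4, and from 10.7 to 15.9 CPM with BIBB-515 with a median of 13.1. The groups overlapped, and the log2 fold change of Rhbg was 0.14 ± 0.10 (95% CI -0.07 to 0.35, FDR = 0.37). Of the 50-base words in Rhbg transcripts, 60.4% also occur in a GENCODE gene at the same locus, Gm38392, which is not in the count tables. Reads of these 2 genes cannot be told apart here.

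The xenobiotic-metabolizing pair behaved differently from each other. Cyp1a2 encodes a cytochrome P450 that metabolizes caffeine and aromatic amines, is induced through AhR and lies at chr9:57676937-57683655 (minus strand). Cyp1a2 ranged from 202 to 297.5 CPM in control mice with a median of 252, and from 343 to 487 CPM with BIBB-515 with a median of 401. Every BIBB-515 mouse was above every control mouse, as for 4.35% of all tested genes. The log2 fold change was 0.73 ± 0.10 (SE, n = 6 per group, 95% CI 0.52 to 0.95, FDR = 0.00032, exact permutation p = 0.00216), an increase by 66.1%. It was called in each of the 12 fits that left out 1 mouse, the one gene of the 9 for which this held. Its paralog Cyp1a1 shares 4.79% of the 50-base words of Cyp1a2 transcripts and was near the detection limit, with 0.363 to 1.29 CPM in control mice and 0.700 to 1.59 CPM with BIBB-515 (log2 fold change 0.37 ± 0.30, FDR = 0.44).

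Cyp2e1 encodes the cytochrome P450 that oxidizes ethanol and acetaminophen and lies at chr7:140763832-140774977 (plus strand). It ranged from 2863 to 6013 CPM in control mice with a median of 4986, and from 3979 to 5074 CPM with BIBB-515 with a median of 4608. The BIBB-515 mice lay within the range of the controls, and the log2 fold change of Cyp2e1 was -0.03 ± 0.15 (95% CI -0.35 to 0.30, FDR = 0.93). Its sign depended on the processing, with 0.01 in limma-voom. The control mice were spread widely, with a coefficient of variation of 25.4% against 8.94% with BIBB-515.

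The 3 members of the Wnt circuit itself were weakly expressed. Lgr5 encodes a receptor for R-spondins, which strengthens Wnt signaling at the cell surface, and lies at chr10:115450314-115587780 (minus strand). Lgr5 had 102 to 259 reads per mouse, which gave 5.19 to 10.0 CPM in control mice with a median of 7.15, and 4.15 to 6.34 CPM with BIBB-515 with a median of 5.14. The groups overlapped, with 3 of 6 BIBB-515 mice below every control and control mouse 1 above all others. The log2 fold change was -0.52 ± 0.15 (SE, n = 6 per group, 95% CI -0.83 to -0.20, FDR = 0.032, exact permutation p = 0.0152).

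Axin2 encodes a scaffold of the beta-catenin destruction complex and is a feedback target of Wnt signaling in many tissues. It lies at chr11:108920349-108950781 (plus strand). Axin2 ranged from 6.64 to 8.88 CPM in control mice with a median of 8.14, and from 5.67 to 10.8 CPM with BIBB-515 with a median of 8.40. The BIBB-515 mice spread on both sides of the controls, and the log2 fold change of Axin2 was 0.07 ± 0.13 (95% CI -0.22 to 0.35, FDR = 0.78). Axin2 had 154 to 340 reads per mouse.

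Tbx3 encodes a T-box transcription factor that is a beta-catenin target in hepatocytes, at chr5:119670862-119684724 (plus strand). It ranged from 18.02 to 31.4 CPM in control mice with a median of 26.1, and from 20.1 to 37.6 CPM with BIBB-515 with a median of 28.03. The groups overlapped almost wholly, and the log2 fold change of Tbx3 was 0.14 ± 0.15 (95% CI -0.18 to 0.46, FDR = 0.59).

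**Figure D2:**
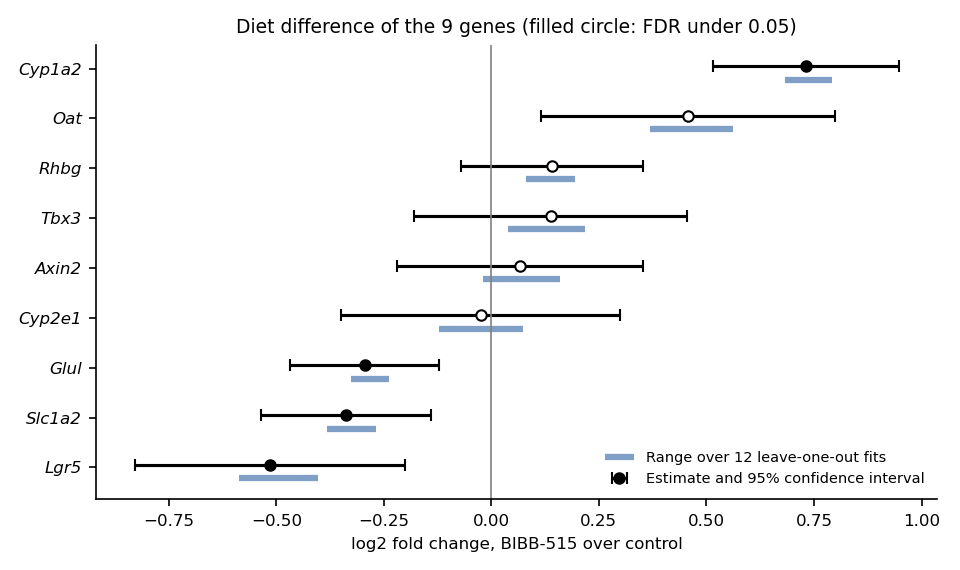
Log2 fold change of each gene, BIBB-515 over control (points, filled where the FDR is under 0.05), with the 95% confidence interval (black bars) and the range of the estimate over 12 fits that each left out 1 mouse (blue bars). The interval of Cyp1a2 begins at 0.52, those of Glul, Slc1a2 and Lgr5 end at -0.12, -0.14 and -0.20, and the interval of Oat begins at 0.12 although its FDR is 0.071.

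The 3 calls of lower expression lay close to the threshold, and each was lost in some fits that left out 1 mouse. Such a fit also has 1 mouse fewer, and some calls were lost at nearly the same estimate. The log2 fold change of Lgr5 was -0.515 without control mouse 6, as with all mice. That of Glul was -0.29 without BIBB-515 mouse 6, also as with all mice. Glul lost its call without control mouse 1 or 4 or BIBB-515 mouse 6, 7, 9 or 10, with an FDR of at most 0.0624, and its log2 fold change ranged from -0.33 to -0.24 over all 12 leave-outs. Slc1a2 lost its call without control mouse 1 or 5 or BIBB-515 mouse 6, 8, 9 or 10, with an FDR of at most 0.0566. Lgr5 lost its call without control mouse 1 or 6 or BIBB-515 mouse 6, 7, 8 or 11, with an FDR of at most 0.0709. Control mouse 1 had the highest value of all 12 mice for Glul, Slc1a2 and Lgr5. Without it the log2 fold changes were -0.24 for Glul, -0.27 for Slc1a2 and -0.40 for Lgr5, and 2 of the 9 genes were called, Cyp1a2 and Oat, both higher. Without BIBB-515 mouse 6, Cyp1a2 alone was called. The direction of these 4 genes and of Oat was the same in all 12 leave-outs and all 10 other settings.

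Levels of different genes can be compared only per length, as CPM per kilobase of exon (RPKM). In control mice the order was Cyp2e1 (2660 ± 675 RPKM, SD, n = 6), Glul (401 ± 44.8), Oat (258 ± 70.9), Cyp1a2 (133 ± 16.1), Slc1a2 (13.4 ± 2.15), Rhbg (6.24 ± 0.68), Tbx3 (5.33 ± 0.92), Axin2 (1.89 ± 0.18) and Lgr5 (1.56 ± 0.33). Only Rhbg and Tbx3, and Axin2 and Lgr5, overlapped with their neighbor in this order. With BIBB-515 the order changed in one place. Oat, at 354 ± 45.7 RPKM, stood above Glul, at 327 ± 18.7 RPKM, and the ranges of these 2 genes then overlapped. Lgr5 and Axin2 were the lowest in both diets.

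Because each mouse gives all 9 values, differences between 2 genes can be compared within mice. Of the 36 pairs, 15 differed between the diets in their within-mouse difference of log2 CPM at an adjusted p under 0.05 (two-sided exact permutation test, Benjamini-Hochberg over the 36 pairs), and 8 of these did not overlap between the groups. Cyp1a2 took part in 7 of the 15, Oat, Lgr5 and Rhbg in 4 each, and Glul, Slc1a2 and Cyp2e1 in 3 each. The 36 pairs share the same 9 genes, so they are not independent and in part restate the differences of single genes. The share over pairs of all tested genes was not computed. Glul exceeded Oat by 1.06 ± 0.34 on the log2 CPM scale in control mice and by 0.27 ± 0.21 with BIBB-515 (SD, n = 6 per group), a difference of -0.78 (exact permutation test, adjusted p = 0.00974). The ratio of Oat to Slc1a2 rose by 0.82 on the log2 scale with the same adjusted p, and that of Oat to Cyp2e1 by 0.48, also with the same adjusted p. Within mice, Oat separated from Glul, Slc1a2, Lgr5 and Cyp2e1, of which Glul, Slc1a2 and Lgr5 were themselves called lower. It did not separate from Axin2, Tbx3, Rhbg or Cyp1a2 (exact permutation test, adjusted p from 0.109 to 0.237). The own change of Oat missed the FDR threshold, but that FDR is adjusted over all tested genes and not over 36 pairs.

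Cyp1a2 rose relative to every gene but Oat, from 0.59 against Rhbg to 1.23 against Lgr5 on the log2 scale. Glul fell relative to Rhbg by 0.43 (adjusted p = 0.00974, exact permutation test), and Slc1a2 by 0.46 (adjusted p = 0.0213, exact permutation test). Among the 3 genes that were called lower, 0 of 3 pairs differed between the diets, with differences of 0.03 to 0.21 on the log2 scale. An adjusted p that misses the threshold does not show that these 3 genes changed alike.

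**Figure D3:**
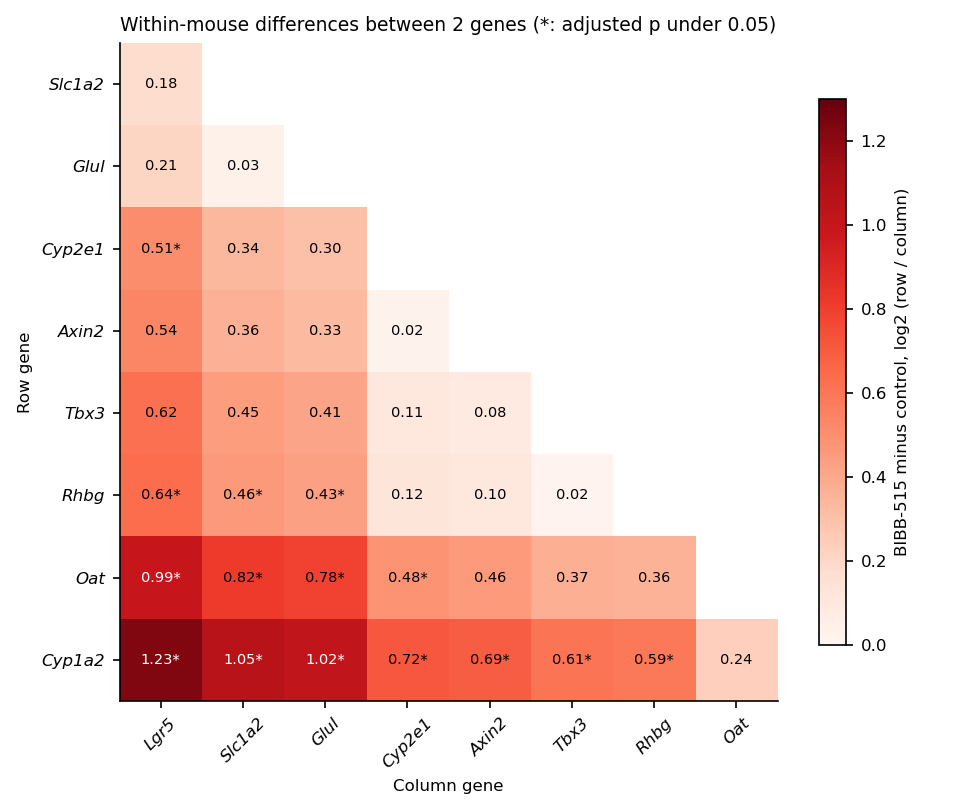
Change with BIBB-515 of the within-mouse log2 ratio of each row gene to each column gene, 36 pairs of the 9 genes, in order of their fold change. Asterisks mark the 15 pairs with an adjusted p under 0.05, of which 7 are in the Cyp1a2 row, where the values run from 0.24 against Oat to 1.23 against Lgr5.

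Within a diet, the genes also varied together to different degrees. After the diet means were subtracted from log2 CPM, 25 of the 36 correlations over the 12 mice were positive, with a median Pearson r of 0.23. In each mouse both values of a pair come from the same library. Oat and Slc1a2 had the highest value (Pearson r = 0.92, Spearman rho = 0.88, n = 12), which was 0.98 over the 6 control mice and 0.50 over the 6 BIBB-515 mice, and 0.83 without the 2 mice farthest from the median of Oat. Control mice 3, 4 and 6 were the lowest and 1 and 5 the highest for both genes. The diet differences of Oat and Slc1a2 went in opposite directions. Oat and Cyp2e1 (r = 0.72, rho = 0.66) came next, but r was 0.20 over the BIBB-515 mice and 0.47 without the 2 mice farthest from the median of Oat. Glul and Rhbg (r = 0.68, rho = 0.73) had 0.70 in control mice, 0.80 in BIBB-515 mice and 0.70 without the 2 mice farthest from the median of Glul. Slc1a2 and Cyp2e1 (r = 0.65, rho = 0.64) had 0.70 in control mice, 0.0052 in BIBB-515 mice and 0.33 without the 2 mice farthest from the median of Slc1a2. Glul and Slc1a2 (r = 0.64, rho = 0.39) fell to 0.37 without control mouse 1. The relations of Cyp2e1 with Oat and Slc1a2 thus rest on the control mice and on few of them. The lowest value was that of Lgr5 and Tbx3 (r = -0.56, rho = -0.70), with -0.29 in control mice and -0.85 in BIBB-515 mice.

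Over all tested genes, the closest to Oat in this measure was Got2 (r = 0.94), a mitochondrial aspartate aminotransferase, and for Slc1a2 it was Oat, followed by Fah (r = 0.92), the last enzyme of tyrosine breakdown. For Cyp1a2 it was Gsta3 (r = 0.86), a glutathione S-transferase that was also higher with BIBB-515 (log2 fold change 0.57, FDR = 0.00022). For Lgr5 it was Sox5 (r = 0.88), a transcription factor gene that was lower with BIBB-515 (log2 fold change -0.58, FDR = 0.00052). Ssu72 (r = 0.93) was closest to Glul, Cog4 (r = 0.97) to Cyp2e1, Hcfc2 (r = 0.92) to Axin2, Socs5 (r = 0.85) to Tbx3 and Rbks (r = 0.92) to Rhbg. Each of these is the highest value among all tested genes over 12 mice and is given as a description only.

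The reads were also counted by exon. For Glul, all 7 exons had a lower mean CPM with BIBB-515, by -0.37 to -0.19 on the log2 scale, and 3 did not overlap between the diets. The first Glul exon overlaps the microRNA gene Mir8114, and 12.6% of the 50-base words of Glul transcripts also occur outside Glul, among others in the pseudogene Glns-ps1, so Glul loses some reads in these counts. For Cyp1a2, all 7 exons were higher, by 0.41 to 0.76, and 6 did not overlap. For Oat, all 10 exons were higher, by 0.42 to 0.50.

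For Slc1a2, 11 of the 12 counted exons had a lower mean, down to -0.55, and 4 did not overlap. The exception was the 46-base first exon at chr2:102706438-102706483, with 0.06 from 11 to 30 reads per mouse. The upstream first exon of a longer annotated transcript, chr2:102658683-102659301, had 0 reads in every mouse, which allows up to 3 reads per library, and the promoter shown above is that of the other annotated start. The exon that ends a short Slc1a2 transcript held 76 to 141 reads per mouse outside the exons of the other transcripts. For Lgr5, only the last of 18 exons reached a mean of 10 reads per mouse, and its log2 ratio was -0.50, with overlap between the diets. Of the counted exons, 7 of 8 were higher for Axin2, 6 of 7 for Tbx3 and 7 of 10 for Rhbg, and 7 of 9 were lower for Cyp2e1, where the values stayed between -0.08 and 0.10.

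**Figure D4:**
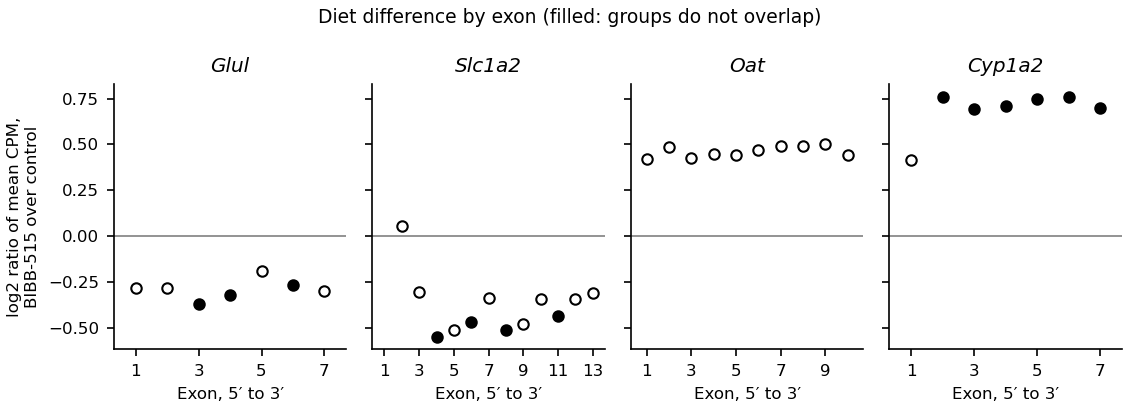
Log2 ratio of mean CPM, BIBB-515 over control, for each exon of Glul, Slc1a2, Oat and Cyp1a2 with a mean of at least 10 reads per mouse, numbered from the 5′ end (filled where no BIBB-515 mouse overlaps the control mice). All exons of Glul lie below 0 and all of Oat and Cyp1a2 above it, and exon 2 of Slc1a2, at 0.06, is the one that departs from its gene.

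Other genes of the pericentral zone moved in both directions. In a list of 17 further pericentral genes, 6 were lower and 0 higher (35.3% called, beside 13.7% of all tested genes). Their median log2 fold change was -0.20. In the 10 alternative settings 5 to 7 were called, with 1 higher and 5 lower under total count scaling. Rgn, which encodes regucalcin, fell by 0.47 on the log2 scale, from 1145 to 1410 CPM in control mice to 869 to 939 CPM with BIBB-515 (FDR = 0.00063). Avpr1a, a vasopressin receptor, fell by 0.87 (FDR = 0.0013), and Gulo, the last enzyme of vitamin C synthesis, fell by 0.45 (FDR = 0.0015). Rnase4, a secreted ribonuclease, fell by 0.68 (FDR = 0.00076), but its exons overlap Ang, which is in the same list and among the 6, so that these 2 are not separate evidence. In contrast, 8 of 11 pericentral drug metabolism genes were higher and 0 lower (72.7% called), with a median of 1.14. Aldh1a1, a retinaldehyde dehydrogenase, rose by 2.25, Gstm1, a glutathione S-transferase, by 2.21, Cyp2a5, which oxidizes coumarin and nicotine, by 1.76 and Cyp2c29, a cytochrome P450 of the 2C family, by 1.67 on the log2 scale, with no overlap between the diets for any of them (FDR of at most 1.18e-05). These 4 genes have close paralogs, and reads that map to several places were not counted, so their levels are uncertain. Cyp1a2 had the direction of the called drug metabolism genes, and Glul, Slc1a2 and Lgr5 that of the called further pericentral genes. Both lists were chosen with earlier results of these data known, and only called genes are matched here. This likeness is therefore a description and no separate evidence.

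The genes of the opposite, periportal zone did not show one direction. Of 22 periportal genes, 7 were higher and 3 lower, with a median of 0.02. The share called was 45.45%, beside 44.44% of the 9 pericentral genes and 13.7% of all tested genes. Cyp2f2, a cytochrome P450 of periportal hepatocytes, rose by 0.99 on the log2 scale, from 507 to 816 CPM in control mice to 1144 to 1414 CPM with BIBB-515 (FDR = 6.76e-05). Gldc, of the glycine cleavage system, rose by 0.77 (FDR = 0.00061), and Hal, which starts histidine breakdown, by 0.55 (FDR = 0.0045). Apoa4, an apolipoprotein, fell by 1.15 (FDR = 0.0016), and Alb, which is also a hepatocyte marker, fell by 0.40 (FDR = 0.013).

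Upstream of the pericentral genes, the Wnt signal is made by endothelial and other cells. Of 14 ligands, R-spondins and secretion genes, 10 passed the filter and 0 were called by edgeR's quasi-likelihood test, by DESeq2, by limma-voom or by the likelihood ratio test, while 4 had an unadjusted p under 0.05, beside 29.7% of all tested genes. Their median log2 fold change was -0.26 and 9 of 10 were negative, but the ligands of the central vein were near the detection limit. Wnt2 had 1.85 to 3.27 CPM in control mice and 1.99 to 3.92 CPM with BIBB-515 (log2 fold change 0.16, FDR = 0.65). Wnt9b had 0.852 to 1.53 and 0.698 to 1.10 CPM (-0.40, FDR = 0.15), and Rspo3 had 4.11 to 7.72 and 4.09 to 5.20 CPM (-0.26, FDR = 0.26). Porcn, the acyltransferase that readies Wnt proteins for secretion, had the lowest p of the list (-0.21, FDR = 0.12). None of the 10 endothelial markers was called by any of these 4 methods, and 0 had an unadjusted p under 0.05. Their sum ranged from 278 to 365 CPM in controls and from 254 to 341 CPM with BIBB-515, and Vwf had the lowest p of them (-0.23, FDR = 0.21).

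Of the Wnt receptors, 1 of 10 tested was called, beside 13.7% of all tested genes. This was Fzd8, which rose by 0.71 on the log2 scale (FDR = 0.0057). Lgr4, an R-spondin receptor of hepatocytes, had 50.5 to 62.9 CPM in control mice and 39.2 to 54.6 CPM with BIBB-515 (-0.23, FDR = 0.060). Of the secreted inhibitors 2 of 11 were tested and 0 were called by any of the 4 methods, with 0 at an unadjusted p under 0.05 (Frzb, -0.17, FDR = 0.50). Of the destruction complex and relay genes, 15 were tested and 0 were called by any of the 4 methods, with 4 at an unadjusted p under 0.05, a share close to the 29.7% of all tested genes. The lowest p was that of Amer1 (-0.27, FDR = 0.085), and Apc, the scaffold of the complex, had -0.17 (FDR = 0.15). The gene of beta-catenin, Ctnnb1, had 185 to 251 CPM in control mice and 177 to 201 CPM with BIBB-515 (-0.16, FDR = 0.16). Of its 13 nuclear partners and regulators, counted with Ctnnb1, 15.4% were called, close to the 13.7% of all tested genes. These were the corepressor genes Tle3 (0.84, FDR = 0.0012) and Tle1 (-0.31, FDR = 0.0077), in opposite directions.

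The general targets and feedback genes of Wnt signaling held calls in both directions, while most were not called. Of 11 tested, 2 were higher and 1 lower, beside 7.18% and 6.48% of all tested genes. The other 8 were not called, and the median log2 fold change was -0.005. Myc, a growth-promoting transcription factor with many inputs besides Wnt, rose by 1.69 on the log2 scale, from 4.13 to 8.46 CPM in control mice to 16.6 to 27.0 CPM with BIBB-515 (FDR = 3.07e-05). Tcf7, a TCF factor, fell by 0.58 (FDR = 0.0069), and Rnf43, a ubiquitin ligase that removes Wnt receptors, rose by 0.54 (FDR = 0.0095). Its relative Znrf3 had a log2 fold change of -0.26 (FDR = 0.15).

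**Figure D5:**
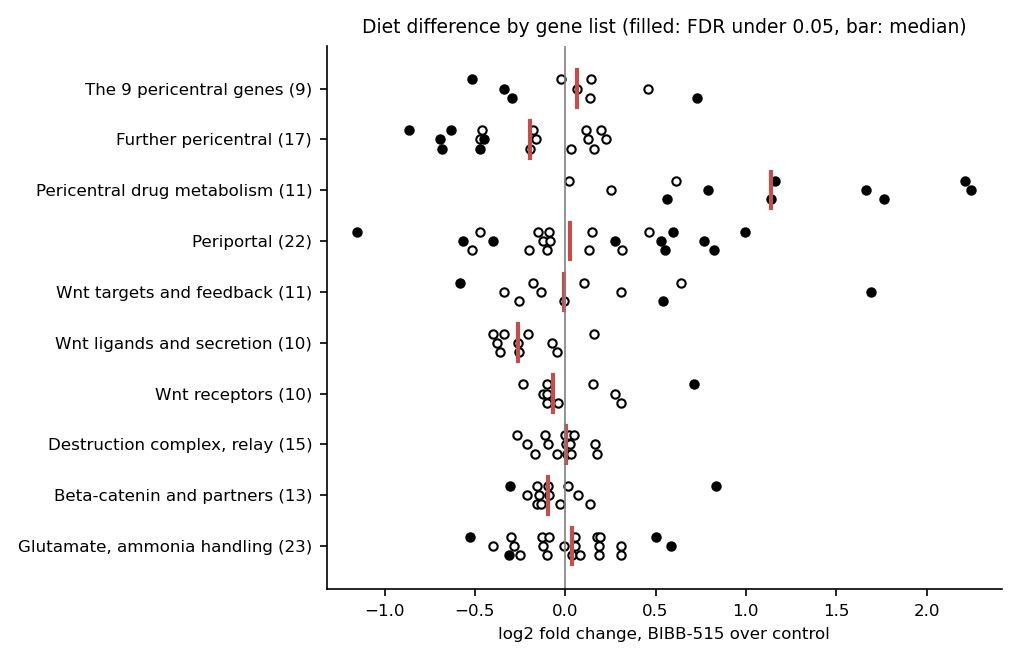
Log2 fold change, BIBB-515 over control, of each tested gene in the 9 pericentral genes and in 9 further lists, with the number tested in parentheses (filled where the FDR is under 0.05, red bar for the median). The drug metabolism genes have a median of 1.14 and the further pericentral genes one of -0.20. Among the Wnt pathway lists, called genes number 3 of 11 targets, 0 of 10 ligands and secretion genes and 1 of 10 receptors. The destruction complex and relay list has 0 of 15 and the beta-catenin list 2 of 13. Over all tested genes 13.7% were called.

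A further list holds the partners of Glul, Oat, Slc1a2 and Rhbg in glutamate, glutamine, ornithine and ammonia handling. Of those tested, 17.4% were called, beside 13.7% of all tested genes. Of 29 listed genes 23 were tested, 2 were higher and 2 lower, with a median of 0.04. The split by direction was not stable. Total count scaling gave 4 higher and 0 lower, and the fit without control mouse 1 gave 2 higher and 0 lower. Aldh4a1, which makes glutamate from the product that Oat forms, rose by 0.59, from 279.6 to 559 CPM in control mice to 589 to 689 CPM with BIBB-515 (FDR = 0.0071). Gpt, the alanine aminotransferase, rose by 0.50 (FDR = 0.028). Slc38a2, an amino acid transporter, fell by 0.53 (FDR = 0.038). The glutaminase of periportal hepatocytes, Gls2, had a log2 fold change of -0.10 (FDR = 0.55), and its exons overlap Spryd4. This list's count moved when 1 mouse was left out, with 1 called without control mouse 4 or BIBB-515 mouse 8 and 7 called without control mouse 2.

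Of the genes of the AhR pathway besides Cyp1a2, 1 of 7 tested was called (14.3%), close to the 13.7% of all tested genes. Nqo1, a quinone reductase that AhR and other stress regulators induce, rose by 0.74, from 6.70 to 11.5 CPM in control mice to 11.5 to 20.2 CPM with BIBB-515 (FDR = 0.0064), and Cyp1a1 did not pass, as given above. Of the other cell type lists, the stellate markers had 2 of 8 lower, beside 6.48% of all tested genes (Lrat, -0.81, FDR = 0.020, and Dcn, -0.27, FDR = 0.040). The stellate sums were 335 to 462 CPM in controls and 332 to 424 CPM with BIBB-515. The Kupffer cell and leukocyte list had 0 of 7 called by any of the 4 methods and 0 with an unadjusted p under 0.05 (lowest p for Ptprc, -0.25, FDR = 0.29), with sums of 292 to 465 and 293 to 494 CPM. The bile duct list had 0 of 5 called by the quasi-likelihood test and by limma-voom, 1 by DESeq2 and by the likelihood ratio test, and 1 with an unadjusted p under 0.05 (Spp1, 0.44, FDR = 0.066), with sums of 79.8 to 132 and 106 to 169 CPM. Their part in the results for the pericentral genes was not tested.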

How the data were processed

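The analysis covers liver RNA-seq of 12 mice, 6 per diet, grouped by their labels. Per the file headers, the authors deposited whole-number counts of reads per gene, made with featureCounts of Subread 1.6.3 on a UCSC annotation of mm10, without a strand option, multi-mapping reads or reads on several genes. The submitters' processing notes also name STAR 2.5.3a. Library preparation is not given in the sources used here. The authors' tables by exon and by transcript, of the same kind, served as descriptions, and their tables of primary alignments as an alternative.

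Genes that reached 1 CPM in 2 or more of the 12 libraries (10% of samples) were tested, 12481 of 24062, a filter that the study names for its human tissues. Counts were scaled by TMM and fitted with edgeR 4.0.16 in R 4.3.3 (quasi-likelihood, diet as the only term, Benjamini-Hochberg over all tested genes). The common biological coefficient of variation was 0.143. Log2 CPM (prior count 2) was also compared with two-sided exact permutation tests over 924 labelings. The tests were tried on simulated counts first. RPKM is CPM per kilobase of exon in the tables. Exon lengths per gene include all annotated exons.

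The 9 genes, the further lists and the alternatives were chosen with earlier results of these data known. The text names the 9 genes, up to 4 genes with the lowest p per list among those called (or the lowest p where none was), 11 genes fixed by name, and the genes most correlated with each of the 9. A gene that falls under this rule is not reported here but stays in every count. Alternatives were DESeq2 1.42.0, limma-voom (limma 3.58.1), the likelihood ratio test, other scalings and filters, primary alignments, 1 surrogate variable (sva 3.50.0) and each mouse left out. Scaling by library totals alone was added after seeing the data. The labels give separate animals per library and no batch.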

Additional observations from a re-analysis of the deposited data

Results flagged for a closer look

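In 4 of 104 sets of 6 mice examined (each named gene within a diet), 1 mouse stood apart from the other 5 by more than Dixon's 95% critical value of 0.625, where chance gives about 5.2. Slc1a2 was highest in BIBB-515 mouse 11 (138 CPM, next 129 CPM, gap over range 0.662), which is the BIBB-515 mouse that overlapped the control range. Gpt was also highest in BIBB-515 mouse 11 (464 CPM, next 399 CPM, 0.637). Gldc was highest in BIBB-515 mouse 6 (366 CPM, next 296 CPM, 0.681), and Tle3 in BIBB-515 mouse 8 (20.1 CPM, next 15.6 CPM, 0.63).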

How the results depend on the processing

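Cyp1a2, Slc1a2 and Lgr5 kept their direction and call in all 10 alternative settings. Glul missed the threshold without the low count filter (-0.29, FDR 0.0504) and kept its call in the other 9. Oat passed with DESeq2 (0.46, FDR 0.0287), the likelihood ratio test (0.46, FDR 0.043), total count scaling (0.51, FDR 0.0378) and 1 surrogate variable (0.48, FDR 0.0308), and the cause was not tested. Cyp2e1 turned positive with limma-voom (0.0143), total count scaling (0.0357) and 1 surrogate variable (0.0211), always with an FDR of at least 0.888. The number of the 9 genes called was 3 to 5 over these settings.

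Leaving out 1 mouse gave ranges of the log2 fold change of -0.33 to -0.24 for Glul, 0.37 to 0.56 for Oat (called without control mouse 1 or 5), -0.02 to 0.16 for Axin2 (negative without BIBB-515 mouse 6, -0.0187), -0.59 to -0.40 for Lgr5, -0.38 to -0.27 for Slc1a2 and -0.12 to 0.07 for Cyp2e1 (positive without control mouse 1, 0.02, control mouse 5, 0.0725, control mouse 6, 0.005, or BIBB-515 mouse 6, 0.01). The number of the 9 genes called was then 1 to 4, with 1 without BIBB-515 mouse 6 and 2 without control mouse 1 or BIBB-515 mouse 7, 8, 9 or 10. The count over all genes was 1489 to 2436 in the alternatives and 1199 to 1865 in the leave-outs, beside 1705. Total count scaling moved the median of all genes from -0.01 to 0.04. The 15 pairs past the threshold stayed 15 in number with another log scale or primary alignments and were 11 to 17 in the leave-outs. Of the further lists, the secreted Wnt inhibitors, the beta-catenin partners and the endothelial and Kupffer cell lists kept their counts of calls in every setting, and the counts of the others moved by 1 to 3 genes. No paired analysis was possible because the mice of the 2 diets were separate animals and the labels give no pairing. Lgr5 and Axin2 had the fewest reads, at most 340 per mouse, but their standard errors were no larger than those of Cyp2e1 and Oat.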
